A study of Rattus norvegicus with 8 samples.

Results

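The 6 genes described here belong to the B lymphocyte programme: Cd79b, Cd22, Blnk, Pou2af1, Fcrla and Cd38. They were measured in rat adipose-tissue-derived mesenchymal stem cells (ATSC), stromal cells grown from fat under the skin of male Sprague-Dawley rats. RNA was hybridised to 8 single-colour Agilent Whole Rat Genome arrays, each holding 1 sample. Of these, 3 carry ATSC on injured liver, where ischemia-reperfusion injury (IRI) means that blood supply was cut and restored, 4 carry ATSC on liver without that injury (non-IRI), and 1 carries ATSC kept in culture (in vitro). The same donor strain and fat depot are given for every group, and the labels name neither separate animals nor the cells recovered with the ATSC, so p-values measure the spread between these samples. Probes were chosen by the RefSeq transcript they are paired with: 9 of 41012 non-control probes carry a transcript of these genes, and 8 of the 9 passed the filter on dim probes. The genes were fitted together with all 21313 genes tested.

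The B cell receptor is a membrane immunoglobulin that signals through the chains Cd79a and Cd79b. Src-family and Syk kinases phosphorylate these chains, the adaptor Blnk then gathers Btk and Plcg2, and coreceptors such as Cd22 restrain the signal. Pou2af1 is a coactivator that joins octamer-binding Oct factors on B cell promoters, Fcrla is an Fc receptor-like protein kept inside B cells, and Cd38 is a surface enzyme that consumes NAD and is also found outside the B lineage. The liver holds resident lymphocytes and Kupffer cells, its macrophages.

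Promoters are shown because 3 of the genes that rose on liver arrays have one with letters of motifs tied to B cell transcription. Of the 6 genes, 4 matched an entry of RefSeq's promoter table (build GRCr8), which covers 250 bases before to 50 after the start site. Capitals mark the matches, and all 4 genes lie on the minus strand.
Cd22 promoter, chr1:95259681-95259980: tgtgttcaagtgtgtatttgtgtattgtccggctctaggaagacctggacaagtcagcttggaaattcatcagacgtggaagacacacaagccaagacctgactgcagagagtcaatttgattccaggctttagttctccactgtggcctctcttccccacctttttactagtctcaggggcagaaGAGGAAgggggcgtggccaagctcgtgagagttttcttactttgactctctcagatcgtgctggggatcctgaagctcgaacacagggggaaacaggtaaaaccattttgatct
Blnk promoter, chr1:249770484-249770783: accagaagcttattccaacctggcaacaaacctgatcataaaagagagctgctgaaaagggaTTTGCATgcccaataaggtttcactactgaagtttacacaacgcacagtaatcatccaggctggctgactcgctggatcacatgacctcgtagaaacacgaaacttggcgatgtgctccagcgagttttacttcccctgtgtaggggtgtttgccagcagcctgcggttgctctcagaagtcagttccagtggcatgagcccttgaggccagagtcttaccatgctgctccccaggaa
Fcrla promoter, chr13:85702777-85703076: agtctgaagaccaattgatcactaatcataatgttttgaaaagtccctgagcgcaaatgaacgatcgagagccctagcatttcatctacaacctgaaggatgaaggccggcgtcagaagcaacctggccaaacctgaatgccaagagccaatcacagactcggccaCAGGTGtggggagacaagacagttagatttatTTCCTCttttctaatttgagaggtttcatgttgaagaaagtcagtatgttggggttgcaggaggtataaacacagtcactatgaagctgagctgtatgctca
The search covered both strands for ATGCAAA, which holds 7 letters of the octamer, for GAGGAA, a PU.1 type ETS motif, and for CACCTG, an E-box of E proteins. The Blnk promoter holds the octamer letters on the reverse strand 188 bases before the start site. GAGGAA stands 64 bases before the start of Cd22 and, on the reverse strand, 52 bases before that of Fcrla, which also has the E-box on the reverse strand 84 bases before its start. The matches do not overlap, and the Cd38 promoter, chr14:71424456-71424755, has none of these letters. Among 33469 promoters of the same length, 4.68% hold ATGCAAA, 27.6% hold GAGGAA and 18.8% hold CACCTG, so the last 2 are common.

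All levels are log2 values of the processed spot signal relative to the 75th percentile of all biological spots on that array, a value that ran from 156 (IRI 1) to 291 (IRI 2) intensity units. The share of spots well above background was lowest in vitro (53.5%) and highest on non-IRI 3 (59.7%). Saturation touched 0 of these spots. The lowest level well above background on the in vitro array was -5.07. Of the mesenchymal stromal list, which holds markers such as Thy1 and Pdgfrb, all 15 kept genes were well above background on each array other than non-IRI 1, where 14 were. The arrays were read in 2 scans: the first holds the IRI and in vitro arrays and the second the non-IRI arrays. Scan and group therefore cannot be told apart when non-IRI is compared with either of the others. Levels of different probes are not set against each other.

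Liver arrays were higher than the in vitro array for most of these genes. Cd22, Blnk, Pou2af1 and Fcrla rose, 4 of 6, where 16.0% of 21302 genes rose, 18.1% fell and 34.2% changed in either direction (limma, adjusted p under 0.05). With arrays scaled to their median the all-gene split was 2763 higher and 6351 lower, against 3410 and 3865. Cd79b and Cd38 did not pass. Blnk and Cd38 passed the filter on dim probes through liver arrays and in vitro, and the other 4 through liver arrays alone. The filter bears on the count of 4, since Cd22, Pou2af1 and Fcrla were kept for the side where they were high. Of the 2 genes measured on both sides, 1 rose. The median log2 difference of the 6 genes was 4.69, or 3.97 with dim genes at their bound, and that of all genes was -0.25 either way. Between IRI and non-IRI, 0 of the 6 passed by limma's adjusted p, where 2.99% of 21313 genes passed, 0.357% higher and 2.64% lower. At an unadjusted p under 0.05 there were 0 of the 6 by their representative probes, where 14.9% of all genes passed. The adjusted count is 638 genes, or 231 with replicate number as a block. All 6 group means were higher in IRI, with a median difference of 0.40 against 0.01 over all genes, of which 51.6% were higher in IRI. The arrays of both groups overlapped for each of the 6. The share of all genes whose groups overlap was not computed, here or for the genes named below.

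**Figure D1:**
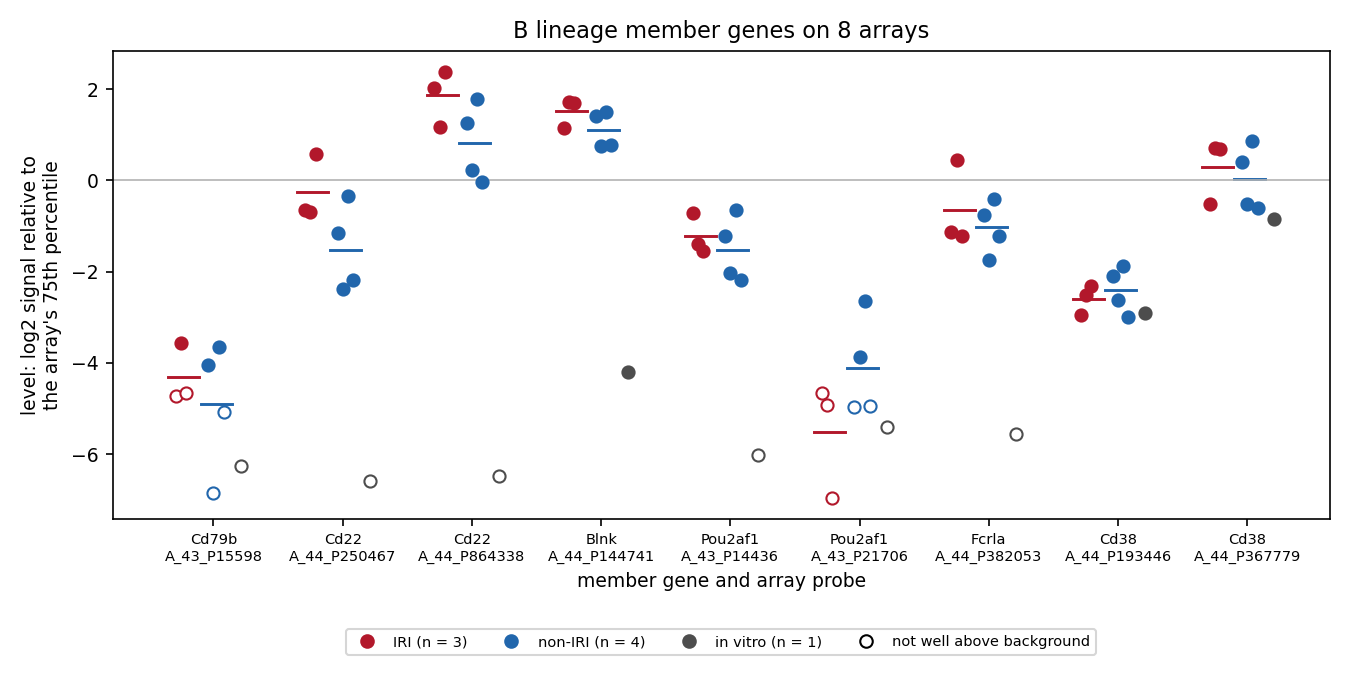
Levels of the 9 probes (log2 signal relative to the array's 75th percentile, vertical axis) by gene and probe (horizontal axis), with IRI, non-IRI and in vitro arrays from left to right at each probe. Points are arrays, bars are group means, open points are not well above background, and heights of different probes are not comparable. Both Cd22 probes, Blnk, the first Pou2af1 probe and Fcrla stand far above the in vitro point on all 7 liver arrays, while both Cd38 probes lie near it.

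Cd79b, a signalling chain of the receptor, was dim (probe A_43_P15598, NM_133533). Its levels were -4.72, -3.57 and -4.66 in IRI replicates 1 to 3, -4.05, -6.86, -3.65 and -5.08 in non-IRI replicates 1 to 4, with -6.26 in culture. It was well above background on 3 arrays only (IRI 2, non-IRI 1 and 3), so 1 of 3 IRI and 2 of 4 non-IRI arrays measured it, and non-IRI 2 lay below the in vitro array. The means were -4.32 ± 0.64 in IRI (SD, n = 3) and -4.91 ± 1.43 in non-IRI (SD, n = 4), a difference of 0.59 ± 0.73 (SE; 95% interval -1.10 to 2.29; limma adjusted p = 0.774). With 4 of 7 liver arrays and the in vitro array not well above background no fold against culture is given, and the fitted liver difference of 1.65 ± 1.03 (SE) did not pass (adjusted p = 0.245). It passed without non-IRI 2, with a fitted difference of 1.97, and IRI minus non-IRI was then -0.055. Cd79b was kept through liver arrays alone, so no p-value is given for that pass.

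Cd22, the sialic-acid-binding inhibitory coreceptor, has 2 probes for 1 transcript (NM_001107503). The brighter, A_44_P864338, read 2.03, 1.18 and 2.37 in IRI replicates 1 to 3, 1.26, 0.23, 1.78 and -0.04 in non-IRI replicates 1 to 4, with -6.48 in culture. All 7 liver arrays were well above background and the in vitro array was not. IRI 3 was highest and non-IRI 4 and non-IRI 2 lowest, and IRI 2 lay below 2 non-IRI arrays. Means were 1.86 ± 0.62 in IRI and 0.81 ± 0.86 in non-IRI (SD, n = 3 and 4), a difference of 1.05 ± 0.49 (SE; 95% interval -0.08 to 2.18; adjusted p = 0.370). Within the 3 pairs of arrays that share a replicate number, IRI was higher each time, by 0.77, 0.94 and 0.59, and with that number as a block the difference was 0.77 ± 0.18 (SE; adjusted p = 0.176). Liver exceeded culture at least 84.9-fold, at least 122-fold in IRI and at least 59.1-fold in non-IRI. Cd22 was kept through liver arrays alone, so no p-value is given beside these bounds. These bounds hold for the processed signal with culture set to -5.07. Under normexp the liver difference of Cd22 was 3.07, below the log2 bound of 6.41. The second probe, A_44_P250467, gave -0.65, -0.70 and 0.58 in IRI, -1.15, -2.38, -0.35 and -2.19 in non-IRI and -6.59 in vitro. It showed the same order of groups, with 1.26 for IRI minus non-IRI (adjusted p = 0.332 over all kept probes). Its pair differences were 0.50, 1.67 and 0.93, and liver was at least 18.2-fold above culture. The unadjusted p of its IRI minus non-IRI difference was 0.0480 with all probes in the fit and just over 0.05 with the kept probes. Across the 7 liver arrays the probes of this gene correlated at r = 0.95.

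Blnk, the adaptor between Syk and its downstream enzymes (A_44_P144741, NM_001025767), was well above background on all 8 arrays. It read 1.15, 1.71 and 1.68 in IRI replicates 1 to 3, 1.41, 0.75, 1.50 and 0.77 in non-IRI replicates 1 to 4, with -4.19 in culture. IRI 1 lay among the non-IRI arrays, and every liver array stood over 4 log2 units above culture. Because both sides were measured, the liver difference of 5.50 ± 0.37 (SE) is a value and not a bound: 45.3-fold (95% interval 25.1 to 81.5; adjusted p = 3.06e-05). This fold holds for the processed signal only. Under normexp the log2 difference was 2.71, below the interval's low end of 4.65 in log2. By group the fitted difference of the processed signal was 5.70 for IRI and 5.30 for non-IRI. IRI averaged 1.52 ± 0.32 (SD, n = 3) and non-IRI 1.11 ± 0.40 (SD, n = 4), and the difference of 0.41 ± 0.26 (SE; 95% interval -0.20 to 1.01) did not pass (adjusted p = 0.529).

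Pou2af1, the octamer coactivator (NM_001109599), has 2 probes that disagree. Probe A_43_P14436 read -0.73, -1.39 and -1.55 in IRI replicates 1 to 3, -1.22, -2.03, -0.65 and -2.19 in non-IRI replicates 1 to 4, with -6.02 in culture. It was well above background on the 7 liver arrays alone, non-IRI 3 was highest, and the liver groups overlapped. Liver was at least 13.0-fold above culture, with no p-value given since this probe was kept through liver arrays alone. IRI minus non-IRI was 0.30 ± 0.40 (SE; 95% interval -0.63 to 1.23; adjusted p = 0.795). Probe A_43_P21706 read -4.67, -4.93 and -6.95 in IRI, -4.96, -3.88, -2.65 and -4.95 in non-IRI and -5.41 in vitro. It cleared background on non-IRI 2 and 3 alone and did not pass the filter. Fitted without the filter it gave -1.41 for IRI minus non-IRI (adjusted p = 0.563) and 0.60 for liver minus in vitro (adjusted p = 0.865), and its correlation with the first probe over the 7 liver arrays was r = 0.33.

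Fcrla, the intracellular Fc receptor-like gene (A_44_P382053, NM_001100682), read -1.14, 0.45 and -1.23 in IRI replicates 1 to 3, -0.76, -1.74, -0.42 and -1.22 in non-IRI replicates 1 to 4, with -5.57 in culture. IRI 2 stood above all other arrays, and the other 2 IRI arrays lay within the non-IRI range. The means of -0.64 ± 0.94 in IRI and -1.03 ± 0.57 in non-IRI (SD, n = 3 and 4) differed by 0.39 ± 0.47 (SE; 95% interval -0.70 to 1.49; adjusted p = 0.767), and by -0.15 without IRI 2. Liver was at least 18.8-fold above culture, at least 21.6-fold in IRI and at least 16.5-fold in non-IRI. The probe was kept through liver arrays alone, so no p-value is given.

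Cd38, the NAD-consuming surface enzyme (NM_013127), was well above background on all 8 arrays with both of its probes. A_44_P367779 read -0.51, 0.71 and 0.68 in IRI replicates 1 to 3, 0.40, -0.53, 0.85 and -0.61 in non-IRI replicates 1 to 4, with -0.84 in culture. All liver arrays lay above culture, but IRI 1, non-IRI 2 and non-IRI 4 did so by little. The liver difference was 1.00 ± 0.63 (SE; 95% interval -0.46 to 2.47; adjusted p = 0.251), and IRI minus non-IRI was 0.26 ± 0.45 (95% interval -0.79 to 1.31; adjusted p = 0.853). A_44_P193446 ran from -2.96 to -2.31 in IRI and from -3.00 to -1.88 in non-IRI, with -2.90 in vitro inside both ranges. It gave -0.19 for IRI minus non-IRI (adjusted p = 0.826) and 0.40 for liver minus in vitro (adjusted p = 0.490) over all kept probes.

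**Figure D2:**
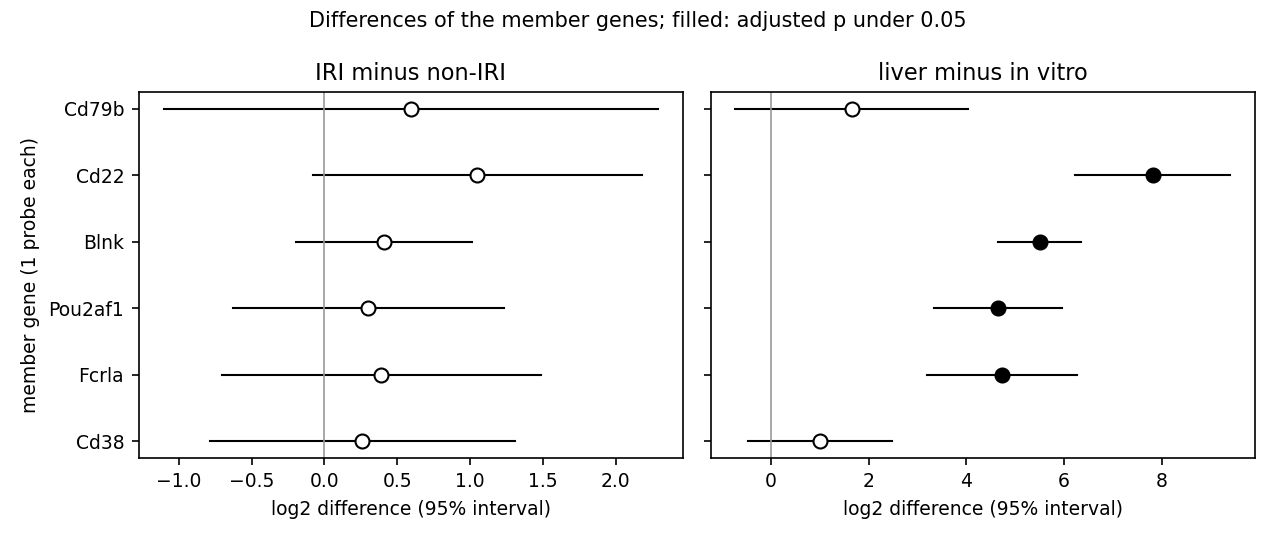
Log2 differences (horizontal axes) of the 6 genes, each by its brightest kept probe (vertical axis), for IRI minus non-IRI (left) and liver minus in vitro (right). Lines are 95% intervals and filled points have an adjusted p under 0.05. All 6 intervals on the left include 0, and those of Cd22, Blnk, Pou2af1 and Fcrla on the right do not, where in vitro values not well above background were fitted as read.

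The representative probes ordered the groups as IRI, non-IRI and in vitro for all 6 genes. The share of all genes with this order was not computed, so it is not read as a trait of the 6. The other probes of Cd38 (-0.19) and Pou2af1 (-1.41) were lower in IRI than in non-IRI, as was Cd79b without non-IRI 2 (-0.055). IRI and non-IRI overlapped and did not pass the test for any of the 6. By replicate number, a pairing that the sample titles do not state, Cd22 was higher in IRI within all 3 pairs. Blnk and Pou2af1 were higher within 2, and Cd79b, Fcrla and Cd38 within 1. Non-IRI and in vitro differed by the test for Cd22, Blnk, Pou2af1 and Fcrla, 4 of 6 where 16.8% of genes rose and 34.7% changed in either direction. IRI and in vitro differed for the same 4 genes, where 14.2% rose and 29.3% changed. The filter bears on these counts and on those that follow, since Cd22, Pou2af1 and Fcrla were kept through liver arrays alone. Of the genes measured on both sides, Blnk passed in both comparisons and Cd38 in neither. Within the first scan, which holds IRI and in vitro, 4 of 6 also passed, where 24.6% of genes changed in either direction. Under a background correction by normexp with an offset of 50, 2 of 6 rose on liver against culture, where 2.39% of all genes rose. These were Cd22 by 3.07 and Blnk by 2.71 (adjusted p = 0.00885). Pou2af1 and Fcrla did not, at 1.31 (adjusted p = 0.258) and 1.37 (adjusted p = 0.291). The in vitro group has 1 array, assumed to vary like the liver arrays.

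The wider B lineage was read from 7 lists with 110 gene names, of which 81 had a probe paired by symbol and 64 were kept. Of those 64, 38 rose and 6 fell on liver against culture, beside 16.0% and 18.1% of all genes, the shares to set beside each list count below. The filter bears on these counts: 31 genes passed it through liver arrays and in vitro, of which 11 rose and 4 fell, 31 through liver arrays alone, of which 27 rose, and 2 through in vitro alone, both of which fell. Between IRI and non-IRI, 0 of the 64 passed by limma and 8 had an unadjusted p under 0.05, 12.5% where all genes gave 14.9%. Several defining B cell genes were dim: 16 of the 81 were well above background on no array, among them Cr2, a complement receptor of B cells, Rag1 and Rag2, the recombinases of early lymphocytes, Ikzf3, a B cell transcription factor, and Mzb1, a plasma cell chaperone. Cd79a, Ms4a1, Ighm, Pax5 and Jchain have no probe paired by symbol and were not analysed here.

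Of the receptor complex and coreceptors, 5 of 7 genes with a probe were kept, and 3 rose and 0 fell on liver, with a median of 4.88, or 3.68 with dim genes at their bound. Fcgr2b, the inhibitory Fc receptor that macrophages also carry, rose by 8.88 ± 0.53 (SE; adjusted p = 1.81e-05), with 6.07 to 6.92 in IRI, 5.95 to 7.17 in non-IRI and -2.31 in vitro. Cd72, an inhibitory coreceptor, was at least 12.9-fold higher on liver. Cd81, a tetraspanin made by many cells, had a difference of -0.56 (adjusted p = 0.159). For IRI minus non-IRI the smallest p-values belonged to Cd22, Cd72 with 0.45 (adjusted p = 0.466) and Cd79b.

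Receptor signalling genes mostly moved 1 way: 15 of 21 rose and 0 fell on liver, with a median of 4.24 (-0.25 over all genes). Of the 11 that were also above background in vitro, 6 rose. Prkcb, a protein kinase C, was at least 366-fold higher on liver, Inpp5d, the lipid phosphatase SHIP, at least 195-fold and Vav1, an exchange factor, at least 153-fold. The Prkcb fold is that of its brightest probe. Its other kept probe, A_43_P20765, had a liver mean of 0.86 and -6.61 in vitro, not well above background. Btk, the kinase that acts with Blnk, was at least 59.2-fold higher. It read 1.07 to 1.66 in IRI, 0.86 to 1.32 in non-IRI and -4.61 in vitro, not well above background. The Inpp5d fold is that of its brightest probe, and its other kept probes gave smaller differences. A_43_P12016, well above background on all 8 arrays, had a liver mean of -2.50 and -3.37 in vitro. A_44_P323496 had a liver mean of -2.40 and -6.39 in vitro, not well above background. Most of the enzymes in this list also serve myeloid and other lymphoid cells. For IRI minus non-IRI Pik3ap1, an adaptor for phosphoinositide kinase, came closest: -0.48, -0.32 and -0.22 in IRI against -1.08, -1.61, -0.86 and -1.34 in non-IRI, groups that did not overlap, with a difference of 0.88 ± 0.21 (SE; adjusted p = 0.0754). Grb2, an adaptor, had 0.69 (adjusted p = 0.221), and Plcg2, the phospholipase that Blnk recruits, had 0.77 (adjusted p = 0.299).

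Transcription factors split. On liver 3 of 10 rose and 4 fell, the median was -0.16, and under normexp 1 rose and 0 fell. All 3 that rose passed the filter through liver arrays alone, and 1 of the 4 that fell through in vitro alone. Spi1, the ETS factor PU.1 of myeloid and B cells, was at least 38.6-fold higher on liver. Irf4, a factor of activated B and plasma cells, was measured on 1 of 3 IRI and 2 of 4 non-IRI arrays. It is counted among the 3 that rose, but most of its readings were not well above background, so no fold or p-value is given. Bach2, a repressor that delays plasma cell differentiation, is the gene that passed the filter through in vitro alone. It was well above background only in vitro, at -4.28, with -6.97 to -6.20 on liver arrays. Its call is among the 4 that fell, but since it was kept for its in vitro level no p-value is given. Between IRI and non-IRI Tcf3, an E protein, read 2.03, 2.14 and 1.99 in IRI against 1.54, 0.96, 1.50 and 1.45 in non-IRI, a difference of 0.69 ± 0.19 without overlap (SE; adjusted p = 0.118). Spi1 had 0.57 (adjusted p = 0.284) and Id3, an inhibitor of E proteins, 0.16 (adjusted p = 0.739).

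Of the surface and survival genes, 11 of 15 rose and 0 fell, with a median of 2.91, or 2.30 at the bounds. Of the 4 also above background in vitro, 1 rose. Cd74, the invariant chain of class II antigen presentation, was at least 9671-fold higher on liver. It read 7.84 to 8.55 in IRI, 7.79 to 8.57 in non-IRI and -5.20 in vitro, not well above background. Ly86, the partner of Cd180, was at least 151-fold higher, Cd37, a leukocyte tetraspanin, at least 62.4-fold, and Cd86, a costimulatory ligand, at least 7.92-fold. In the IRI minus non-IRI comparison Cd52, a lymphocyte surface peptide, had 1.36 (adjusted p = 0.251), with IRI 2 at 3.30 above all other arrays. Ly86 had -0.49 (adjusted p = 0.399) and Tnfrsf17, the plasma cell receptor BCMA, 0.45 (adjusted p = 0.580).

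Of the plasma cell genes, 2 of 5 rose and 0 fell. Prdm1, the repressor Blimp-1, was at least 13.0-fold higher on liver and Tnfrsf17, which the surface list also holds, at least 2.73-fold. The other Prdm1 probe was well above background on 1 array only and was not kept. Between IRI and non-IRI the endoplasmic reticulum genes Creld2 and Derl3 had 0.75 (adjusted p = 0.213) and 1.27 (adjusted p = 0.214), and Derl3 was well above background on 2 of 3 IRI and 1 of 4 non-IRI arrays. Of the early B cell list only 3 of 8 genes with a probe were kept. Il7r, the interleukin-7 receptor, was at least 9.55-fold higher on liver by its brightest probe, and Cd93 rose by 5.71 (adjusted p = 5.99e-06). The other kept Il7r probes had liver means of -2.76 and -4.17, each with -5.54 in vitro, not well above background. Igll1, a surrogate light chain, was kept for its in vitro level of -3.54 alone and read -6.98 to -6.39 on liver arrays, none well above background. It is the 1 gene of this list counted as fallen, but for that reason no p-value is given. Their differences between IRI and non-IRI were -0.05, -0.22 and 0.07.

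Of the ligands and chemokines that act on B cells, 3 of 6 rose and 1 fell. Tnfsf13, the survival ligand APRIL, rose by 4.99 (adjusted p = 2.43e-05), and Cxcl13, which draws B cells into follicles, rose by 3.48 (adjusted p = 0.0280). Il4 was at least 10.5-fold higher by its brighter probe. Cxcl13 varied widely, at 3.13, 0.59 and 1.56 in IRI and -0.01, 2.37, 1.25 and 1.56 in non-IRI, against -1.95 in vitro. Kitlg, the stem cell factor, fell by 1.16 (adjusted p = 0.0272). For IRI minus non-IRI Il6 had -1.23 (adjusted p = 0.451), Tnfsf13 0.38 (adjusted p = 0.491) and Kitlg -0.32 (adjusted p = 0.587).

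Markers of other immune cells rose on liver beside these genes, where 16.0% of all genes rose. In vitro, 5 of the 19 kept macrophage genes, 3 of the 20 T and NK cell genes and 1 of the 6 neutrophil genes were well above background. Of the macrophage and Kupffer cell list 18 of 19 kept genes rose, with a median of 9.72, or 9.15 with dim genes at their bound, and its mean level was 4.57 to 4.93 in IRI, 3.67 to 4.73 in non-IRI and -4.98 in vitro. Of the T and NK cell list 19 of 20 rose, with a median of 6.34, or 5.56 at the bounds, and mean levels of -0.35 to 0.28 in IRI, -0.67 to 0.35 in non-IRI and -5.83 in vitro. Of the neutrophil list 5 of 6 rose, and its mean level was 0.31 to 1.27 in IRI, -1.99 to -0.30 in non-IRI and -5.23 in vitro. In these bulk samples fewer cells of a type and less RNA per cell cannot be told apart, and the part of these cell types in the B lineage values was not tested. Between IRI and non-IRI, 12 of 18 hepatocyte genes rose, where 0.357% of all genes rose. The mean level of that list was 0.32 to 0.62 in IRI and -3.10 to -1.37 in non-IRI, and the part of that shift in the 6 genes was not tested. The mean of the mesenchymal list was 4.30 to 4.35 in IRI, 3.47 to 4.66 in non-IRI and 4.52 in vitro.

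**Figure D3:**
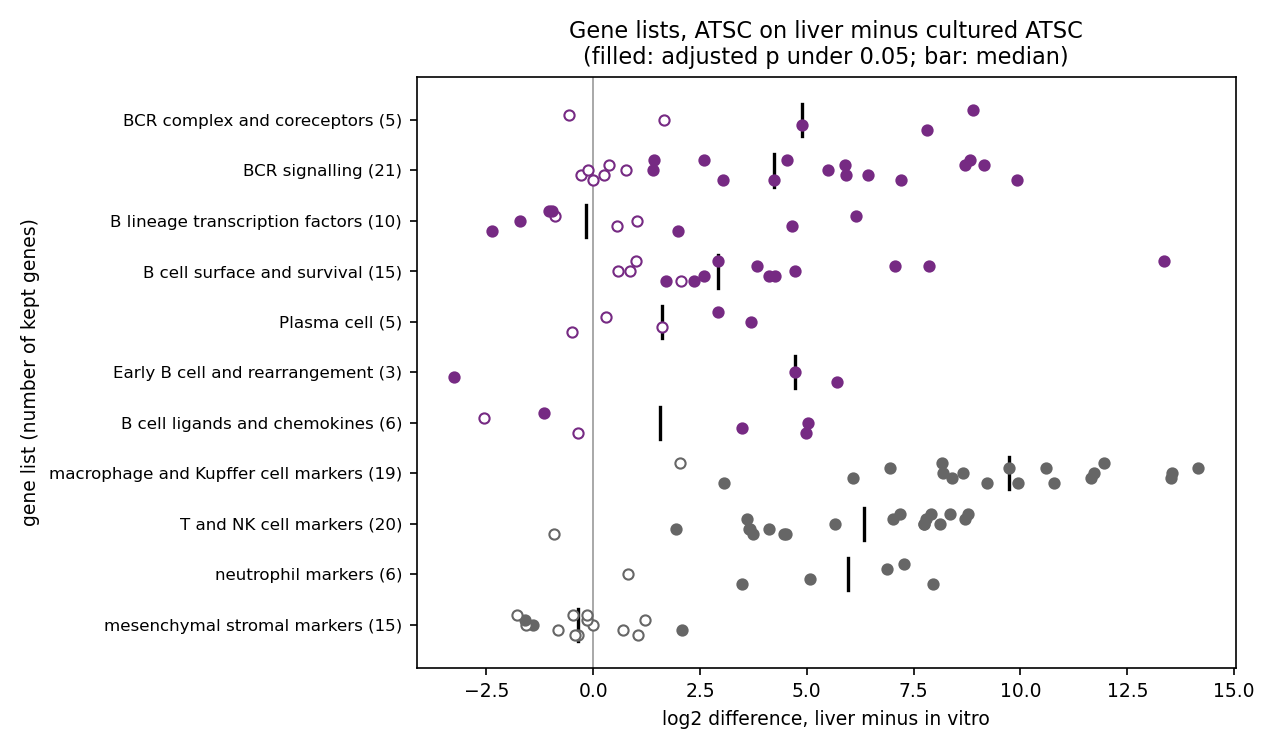
Log2 difference, liver minus in vitro (horizontal axis), of each kept gene of 7 B lineage lists (purple) and 4 lists of other cells (grey) on the vertical axis. Filled points have an adjusted p under 0.05 and bars are list medians. In the signalling list 15 of 21 genes rose and in the transcription factor list 3 of 10, while 18 of 19 macrophage and 19 of 20 T and NK cell genes rose.

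The 6 genes varied together over the liver arrays to different degrees. For 5 of 6, all except Fcrla, the lowest 2 of the 7 arrays were non-IRI 2 and non-IRI 4. The share of all genes with the same 2 lowest arrays was not computed, so the count is not read as a trait of the 6. The means of the macrophage list (3.82 and 3.67) and of the T and NK cell list (-0.65 and -0.67) were lowest on these arrays too, and that of the mesenchymal list was highest there (4.61 and 4.66). Pearson correlations over the 7 arrays, which share scaling and liver group, are given as descriptions. Between members they ran from 0.22 (Cd22 and Fcrla) to 0.92 (Blnk and Cd38). With the macrophage list mean they were 0.95 for Cd22, 0.88 for Blnk, 0.75 for Cd38, 0.71 for Pou2af1, 0.63 for Cd79b and 0.44 for Fcrla. With the T and NK cell list mean they were 0.94 for Cd22, 0.80 for Pou2af1, 0.68 for Blnk, 0.62 for Cd38, 0.55 for Cd79b and 0.19 for Fcrla. The endothelial list mean gave -0.96 for Cd22, -0.70 for Pou2af1 and -0.66 for Blnk, and between -0.50 and -0.11 for the other genes. With the erythroid list mean, highest on IRI 2 as Fcrla was, Fcrla gave 0.80 and the others 0.26 to 0.61.

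**Figure D4:**
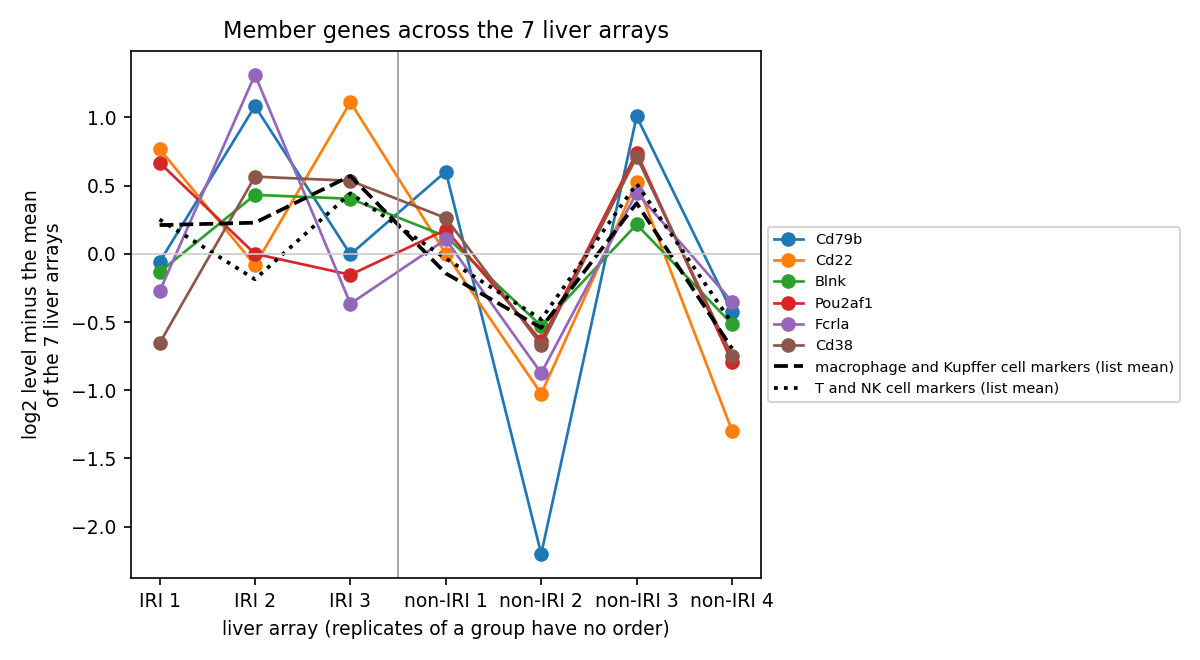
Level of each of the 6 genes minus its own mean over the 7 liver arrays (log2, vertical axis) by array (horizontal axis, IRI on the left), with the macrophage and the T and NK cell list means in black. Lines only join the points of 1 gene, since replicates have no order. All 6 genes and both lists lie below their mean on non-IRI 2 and non-IRI 4, and Fcrla, Cd79b and, by little, Blnk peak on IRI 2.

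Among 9577 other genes with a symbol, the closest in pattern over the 7 liver arrays were Batf (r = 0.99), Orai2 (0.98) and Arhgap39 (0.98) for Cd22. For Blnk they were Icam2, Stom and Tlr2, each at r = 0.99. H2ac25 (0.99), Mvd (0.99) and Nop56 (0.98) were closest to Pou2af1, Car1 (0.96), B3galnt2 (0.94) and Nr2c2 (0.94) to Fcrla. Phyhd1 (0.98), Mllt1 (0.97) and Zwint (0.97) followed Cd38, and Bcl2, Raver1 and Yju2 followed Cd79b, each at r = 0.97. Of the genes closest to Cd22 and Blnk, Batf read 1.97 to 2.70 in IRI, 1.14 to 2.47 in non-IRI and -5.00 in vitro, Icam2 read 0.33 to 1.04, -0.04 to 0.83 and -6.55, and Orai2 read 1.79 to 2.07, 1.54 to 1.85 and 2.06.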

How the data were processed

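Expression was measured on 8 single-colour (Cy3) Agilent arrays. Per the file headers, the deposited scanner files hold spot intensity processed by Feature Extraction 11.0.1.1, while the submitters' processing notes name 9.1. The authors' deposited value table holds log2 values: each column correlated with the median-centred scanner values at r = 0.9997 or more over 41012 of its 41105 rows, and its column medians were 0.18, -0.07 and -0.05 for IRI 1 to 3, 0.09, -0.15, -0.02 and -0.02 for non-IRI 1 to 4, and 0.16 for in vitro. It served as an alternative.

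Each processed signal was put on the log2 scale and the array's 75th percentile over 43379 non-control spots was subtracted. Between 45 and 117 outlier spots per array were left out. A probe was kept, as 24832 were, if it cleared background on 3 or more liver arrays or in vitro, and each gene took its kept probe with the highest mean. Symbols came from RefSeq's gene table and matched 17541 of 41012 probes. Of the 21313 genes tested (21302 against culture), 9605 have a symbol. Group means were fitted on all 8 arrays with limma 3.58.1 in R 4.3.3 (lmFit, eBayes; residual degrees of freedom 5, prior 2.81), with Benjamini-Hochberg adjustment over all genes and a threshold of 0.05. The fit was tested on simulated data. Where the in vitro array was not well above background, "at least" sets it to the higher of its own level and -5.07. That level is the lowest called well above background there, so these folds are bounds for the processed signal only. No p-value stands beside such a fold, because its probe was kept through liver arrays alone and the fit took culture as read. Under normexp with an offset of 50 the liver differences of Cd22, Pou2af1 and Fcrla were smaller than their bounds. For medians at the bound, a gene above background on no liver array had each liver array set likewise.

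Members and lists were chosen with earlier results of these data known. Named list genes are the kept genes past the test, at most 4 by smallest p, or otherwise the 3 with the smallest p. Cd81 is named because it completes the list of 5, and was added after its values were seen, as were Rag1, Rag2, Ikzf3 and Mzb1. Pairs of IRI and non-IRI arrays were formed by replicate number, and the sample titles give only that number, not a pairing. Deviations from group means correlated at 0.19, 0.16 and 0.10 for replicates 1, 2 and 3. Arrays of unlike number ran from -0.19 (IRI 1 and non-IRI 2) to 0.083 (IRI 3 and non-IRI 2). Deviations within a group sum to 0, so these correlations depend on each other and do not settle whether the arrays were paired. Alternatives changed the scaling, background correction, filter, probe rule, prior, weights, block, samples and source of values. Normexp used the median spot signal, since the mean signal is not a column of these files. A listed gene is not reported here.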

Additional observations from a re-analysis of the deposited data

Results flagged for a closer look

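The mean level of the plasma cell list on the non-IRI arrays stood out because of non-IRI 1, which lay at -0.35 while the other non-IRI arrays lay between -0.10 and -0.09. The gap was 0.973 of the group's range, above Dixon's critical value of 0.829 for 4 samples. The 3 IRI arrays had 0.07, 0.44 and 0.22, and the in vitro array had -1.56. In all 24 sets of non-IRI values were checked, 9 probes and 15 lists, and chance flags about 1 in 20.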

How the results depend on the processing

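Of the 6 genes, 0 passed for IRI minus non-IRI under every alternative run, including leaving out each liver array, and 4 passed against culture except as follows. Normexp left 2 in liver, IRI and non-IRI minus in vitro. With bright background set to the median it left 3 for liver and 2 for IRI and non-IRI. When only probes bright on all 8 arrays were tested, 1 passed in each, since only Blnk and Cd38 were then tested. Without single arrays 4 to 5 passed for liver and 4 for each group. Fcrla's liver difference under the bright-background setting was 1.27 (adjusted p = 0.0582). IRI minus non-IRI changed sign for Pou2af1 under normexp (-0.13) and array weights (-0.080), and for Cd79b under normexp (-0.50). Leaving out 1 array gave -0.055 to 1.01 for Cd79b and -0.15 to 0.69 for Fcrla, and, with no change of sign, 0.051 (without IRI 1) to 0.59 (without non-IRI 3) for Pou2af1 and 0.047 (without non-IRI 4) to 0.66 (without IRI 1) for Cd38. Under bright-background normexp Cd79b was -0.084 for liver, -0.041 for IRI and -0.13 for non-IRI minus in vitro, and -0.0098 for IRI under normexp. Causes were not tested. With the replicate block Cd22 was 0.77 for IRI minus non-IRI (adjusted p = 0.176), the 4 counts of members stayed at 0, 4, 4 and 4, and the all-gene count for IRI minus non-IRI was 231 against 638, with no other member call changed. That count was 2160 with array weights, 0 under normexp, 419 under bright-background normexp, and 277 to 689 without single arrays. For liver minus in vitro 3410 genes rose and 3865 fell. Median scaling gave 2763 and 6351 and shifted the median of all genes by -0.29, normexp gave 510 and 223 with a shift of 0.16, and bright-background normexp gave 1774 and 3067. Normexp shifted IRI minus non-IRI by -0.17. List counts were recomputed under the same alternatives, a choice made after seeing the data: signalling genes that rose numbered 7 to 16, with 9 under normexp and 7 with probes bright on all arrays, and surface genes 1 to 12. Under array weights 2 of 21 signalling, 1 of 10 transcription factor and 2 of 5 plasma cell genes rose for IRI minus non-IRI. Of all 21313 genes, 2160 then passed in either direction. The share that rose alone was not computed, so these counts are not read as a trait of the lists. A slide block was not run because each non-IRI array shares its scan with no other group. Dim probes limit folds to bounds.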

Other observations

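Lists of other liver cells gave these values. Of 5 kept erythroid genes, 2 rose on liver against culture and 0 passed between IRI and non-IRI, where their median difference was 2.88 and IRI 2 had the highest mean level (2.75). Of 6 endothelial genes, 2 rose on liver, and 1 of 6 was higher in IRI by mean, with a median difference of -0.77 and 0 past the test. Of 3 kept plasmacytoid and dendritic cell genes, 2 rose on liver and 0 passed between IRI and non-IRI. Of 15 mesenchymal stromal genes, 1 rose and 2 fell on liver. Blk, a Src-family kinase of the receptor, was chosen after its values were seen: it cleared background on IRI 2 and IRI 3 alone, at -4.38, -4.25 and -4.13 in IRI and -5.33, -6.14, -4.52 and -5.07 in non-IRI, with -6.44 in vitro, and it was not tested.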
